A study of Mus musculus with 121 samples.

Results

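The genes described here encode proteins of the lipid droplet surface or proteins that act directly on the droplet. They are 10 of the 25759 genes in each of 2 count tables, 1 for liver and 1 for gonadal adipose tissue, and were picked by symbol: Cidea, Cideb, Cidec, Plin2, Plin3, Plin4, Plin5, G0s2, Fitm2 and Hilpda. All 10 were found in both tables through their Ensembl identifiers. Counts passed the low-count filter for 9 of them, and G0s2 had no read in any library. The mice were C57BL/6 and carried the PEP locus as wild type (WT), heterozygote (HET) or knockout (KO); Pepd encodes peptidase D, also called prolidase, which splits dipeptides that end in proline. From 8 weeks of age they had 18 weeks of standard chow (10% of calories as lipid), HFD 45%, a Control diet or the Alios diet. The liver libraries came from chow-fed mice (5 WT, 8 HET, 5 KO), 8 WT, 11 HET and 9 KO on HFD, 5 WT, 4 HET and 1 KO on Control, and 6 WT, 5 HET and 8 KO on Alios. The gonadal libraries came from chow-fed mice (4 WT, 8 HET, 5 KO) and mice on HFD (8 WT, 11 HET, 9 KO). How the Pepd allele was made, the sex of the mice and the make-up of the Control and Alios diets were not named in the labels used here. Each library was 1 mouse.

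A lipid droplet is a core of triglyceride and sterol ester under a single phospholipid layer that carries a coat of proteins. The perilipins (Plin genes) sit on that layer and govern how lipases reach the core, and the CIDE proteins (Cidea, Cideb, Cidec) gather at contacts between droplets and let lipid pass into the larger one. Fitm2 acts in the endoplasmic reticulum where droplets bud, and G0s2 and Hilpda bind and inhibit adipose triglyceride lipase, the product of Pnpla2. In adipocytes Cidec accompanies the single large droplet. In liver, Plin2 is the general coat of hepatocyte droplets, Cideb also takes part in loading very low density lipoprotein, and Cidea and Cidec are known for their rise in fatty liver as targets of the nuclear receptor PPARgamma.

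Total counts per library ran from 42692 to 8854246 in liver (median 3191160) and from 4236655 to 6699887 in gonadal adipose tissue (median 5981802); the lowest liver total belonged to an Alios KO mouse, and the next was 1027087. Pepd, in CPM (counts scaled to the library total), lay at 31.3 or more in every WT liver and at 3.09 or less in every KO liver. In gonadal tissue it lay at 58.5 or more in WT and at 35.8 or less in KO. HET livers held 15.4 to 35.9 CPM except 1 HFD mouse labelled HET at 1.26, whose gonadal library was also lowest of its group at 21.7. The summed hepatocyte markers were 61854 to 148783 CPM in liver, and the summed adipocyte markers were 10.6 to 83.8 CPM in liver against 3866 to 28198 in gonadal tissue. Markers of other tissues stood high in single libraries: skeletal muscle up to 2405 CPM in a liver, epididymis up to 15100 CPM and hepatocyte up to 50318 CPM in gonadal libraries. G0s2 was listed at 0 in all 75 liver and all 45 gonadal libraries. A floor of 3 counts corresponds to 0.94 CPM in liver and 0.502 CPM in gonadal tissue at the median totals. Acta1, the skeletal muscle actin, was also listed at 0 in every library, including that muscle-rich liver, and 33.0% of genes in liver and 24.7% in gonadal tissue had no read anywhere, so the zeros for G0s2 give no level for it.

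Promoters of Plin2, Hilpda, Cidec and Plin4 are shown so that their sequence can be set beside their values. These members were called higher in HET livers on HFD than on chow. Other members called there or between genotypes, such as Fitm2, are not shown. Each promoter is the 250 bases before a RefSeq start on GRCm38.p6, written 5′ to 3′ on the gene's strand, and 9 of the 10 members had an entry. Capitals mark the half-site AGGTCA of nuclear receptors such as the PPARs, on either strand (so TGACCT counts), or ACGTG, a form of the core bound by hypoxia-inducible factors. Other forms of that core were not searched. The windows are chr4:86670060-86670309 (minus strand) for Plin2, chr6:29272376-29272625 (plus strand) for the second start of Hilpda, chr6:113435761-113436010 (minus strand) for the first start of Cidec and chr17:56109783-56110032 (minus strand) for Plin4.
Plin2: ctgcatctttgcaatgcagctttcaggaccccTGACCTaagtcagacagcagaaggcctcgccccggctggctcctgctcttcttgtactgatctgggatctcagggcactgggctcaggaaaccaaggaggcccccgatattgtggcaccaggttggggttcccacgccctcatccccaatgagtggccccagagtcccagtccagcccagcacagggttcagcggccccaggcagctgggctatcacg
Hilpda: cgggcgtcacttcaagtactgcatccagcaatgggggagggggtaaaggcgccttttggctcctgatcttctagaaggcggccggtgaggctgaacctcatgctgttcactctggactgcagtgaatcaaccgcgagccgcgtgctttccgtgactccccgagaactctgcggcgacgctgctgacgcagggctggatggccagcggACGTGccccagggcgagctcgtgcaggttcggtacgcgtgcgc
Cidec: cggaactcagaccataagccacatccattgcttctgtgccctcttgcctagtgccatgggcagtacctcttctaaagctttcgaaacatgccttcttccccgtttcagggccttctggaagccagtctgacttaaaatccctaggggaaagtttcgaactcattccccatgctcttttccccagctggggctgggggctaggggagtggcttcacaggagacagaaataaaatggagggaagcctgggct
Plin4: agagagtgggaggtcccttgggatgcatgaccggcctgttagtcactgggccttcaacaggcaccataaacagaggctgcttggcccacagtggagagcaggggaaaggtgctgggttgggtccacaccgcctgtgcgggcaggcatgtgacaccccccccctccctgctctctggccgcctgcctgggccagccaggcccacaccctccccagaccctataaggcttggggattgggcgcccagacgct
AGGTCA was found in 2 of the members' 12 windows, those of Plin2 and Plin5, and in 14% of all 32841 RefSeq windows of this length. ACGTG, which also lies inside the E-box CACGTG, was found in 1 of the 12, the window shown for Hilpda, and in 16.6% of all windows; the window of the first Hilpda start holds none of the motifs searched. The PPAR response element DR1, searched as that half-site repeated with 1 base between, was in 0.0335% of all windows and in none of the members', TATAAA was in 12.4% and for Cideb, and CACGTG was in 6.02% and for no member. The Cidec and Plin4 windows hold none of these letters.

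The coat differed between the tissues in a comparison of liver with gonadal tissue from the same 8 WT mice on HFD. Cideb and Plin5, which links droplets to mitochondria in oxidative tissue, were higher in liver, and Cidec, Plin4 and Hilpda were higher in fat. Cideb was 40.0-fold higher in liver (log2 fold change 5.32 ± 0.63 SE, edgeR adjusted p = 2.01e-05) and Plin5 was 5.09-fold higher (2.35 ± 0.26, adjusted p = 1.41e-05). Among the gonadal libraries, that of HFD WT mouse 6 held 50318 CPM of hepatocyte markers and 30.7 CPM of Cideb, against a group median of 0.978 CPM. Without that mouse Cideb was 71.6-fold higher in liver (6.16, adjusted p = 2.55e-09) and Plin5 was 5.81-fold higher (2.54, adjusted p = 1.87e-06). With all 8 mice but without the mouse as a block, Cideb was 17.3-fold higher (4.11, adjusted p = 2.55e-05). Cidec was 32.5-fold lower in liver than in fat (-5.02 ± 0.65, adjusted p = 3.96e-05), Plin4 22.4-fold lower (-4.48 ± 0.60, adjusted p = 4.94e-05) and Hilpda 4.01-fold lower (-2.004 ± 0.16, adjusted p = 1.01e-06). Plin2 was 1.56-fold higher in liver (0.64 ± 0.22, adjusted p = 0.0228), but with library totals alone as the scale its log2 fold change was -0.17 (adjusted p = 0.474), so its direction depends on the scaling. On that scale Plin3 (-0.82, adjusted p = 0.000318) and Fitm2 (-1.21, adjusted p = 0.00015) were called lower in liver, and the other log2 fold changes were 4.55 for Cideb, 1.55 for Plin5, -5.82 for Cidec, -5.29 for Plin4 and -2.82 for Hilpda. In this comparison 75.9% of the 12388 genes tested were called, and 6 of the 9 members were. Cidea (1.43 ± 0.91, adjusted p = 0.174), Plin3 (-0.01 ± 0.14, adjusted p = 0.952) and Fitm2 (-0.40 ± 0.19, adjusted p = 0.0784) were not. Without the mouse as a block Cidea and Fitm2 passed as well (adjusted p = 0.0266 and 0.0221).

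Per kilobase of exon, Plin2 had the highest level of the coat in WT liver on HFD at 336 ± 97.1 CPM per kb (SD, n = 8). Cidec followed at 38.8 ± 24.4, and the levels from Cidec down to Plin3 (15.8) were Cideb 31.2, Cidea 24.3, Plin4 22.9, Fitm2 19.5 and Plin5 19.3 CPM per kb; the spreads of Cidec, Cidea and Plin4 cover their neighbours in this order. Hilpda was lowest at 3.59 CPM per kb. In gonadal fat of the same mice Cidec led at 1935 ± 660 CPM per kb (SD, n = 8), before Plin4 at 816 ± 254 and Plin2 at 381 ± 98.8. There Fitm2 (46.7), Plin3 (28.0), Hilpda (26.0), Cidea (12.4), Plin5 (7.53) and Cideb (3.25 CPM per kb) followed. Without the library of mouse 6, Cideb was 0.776 ± 0.461 CPM per kb and Plin5 was 5.73 ± 2.02 CPM per kb (SD, n = 7). Of the exon bases of Cideb, 76.3% lie opposite Nop9 exons. The strand setting of the counting is not given in the sources used here, so this overlap may have raised or lowered the Cideb values. For Fitm2 that share is 5.72% (2310001K24Rik).

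In HET livers HFD raised most of the coat. Against HET mice on chow, 8 of the 9 members tested rose: Cidea, Cidec, Plin2, Plin3, Plin4, Plin5, Fitm2 and Hilpda, and only Cideb did not pass (log2 fold change 0.16, adjusted p = 0.182). Among all genes tested 6.97% were called higher in this comparison. The members' median log2 fold change was 0.73, against -0.01 over all genes tested. As RNA was taken from whole tissue, fewer cells of a type and less RNA per cell cannot be told apart here or below.

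Plin2 in HET livers was 345, 469 and 600 CPM at the lowest, median and highest of 8 mice on chow and 707, 1103 and 1540 CPM over 11 mice on HFD. The ranges did not overlap. Here and below, the share of all genes whose ranges do not overlap was not counted. The difference was 2.38-fold (log2 1.25 ± 0.18 SE, adjusted p = 4.21e-06). Plin4, an amphipathic perilipin abundant in adipocytes, was 9.17, 23.8 and 47.9 CPM on chow and 42.5, 130 and 243 CPM on HFD. All HFD livers but 1 lay above every chow liver, and the rise was 4.88-fold (2.29 ± 0.45, adjusted p = 0.000497). Cidec was 6.35, 15.8 and 28.7 CPM on chow and 16.8, 55.9 and 128 CPM on HFD, a 3.96-fold rise (1.98 ± 0.41, adjusted p = 0.000889). Here 8 of 11 HFD livers exceeded the highest chow liver. Cidea was near the limit of detection on chow, at 0, 0.956 and 6.22 CPM, and reached 0.975, 20.3 and 41.6 CPM on HFD. It rose 9.69-fold (3.28 ± 0.84, adjusted p = 0.00648), the largest of the members' fold changes, with 8 of 11 HFD livers above the chow range. The log2 fold change was 4.32 (adjusted p = 0.00399) without chow HET 3 and 5.01 (adjusted p = 0.0104) without the livers rich in muscle markers (over 50 CPM in sum). With the replicate number as a block it was 2.47 and did not pass (adjusted p = 0.0766).

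The other called members of HET liver moved by smaller steps. Fitm2 was 37.1, 56.0 and 75.1 CPM on chow and 71.7, 82.7 and 109 CPM on HFD, 1.57-fold higher (adjusted p = 0.000672). Plin3, the perilipin that also occurs free in the cytosol, rose 1.54-fold (adjusted p = 0.00156), and Plin5 rose 1.52-fold (adjusted p = 0.0193). Hilpda was 1.04, 1.90 and 2.67 CPM on chow and 0.629, 3.28 and 5.04 CPM on HFD, from 1 to 24 counts a library on HFD, and rose 1.66-fold (adjusted p = 0.0324). It no longer passed when any of 7 single mice was left out (chow HET 2, 3, 6 and 7 and HFD HET 4, 9 and 10, adjusted p 0.0528 to 0.0916), and Plin5 no longer passed without chow HET 7 (adjusted p = 0.0524). The adipocyte marker sum had a median of 48.4 CPM in HET livers on chow and 34.5 CPM on HFD. Its part in these values was not tested.

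**Figure D1:**
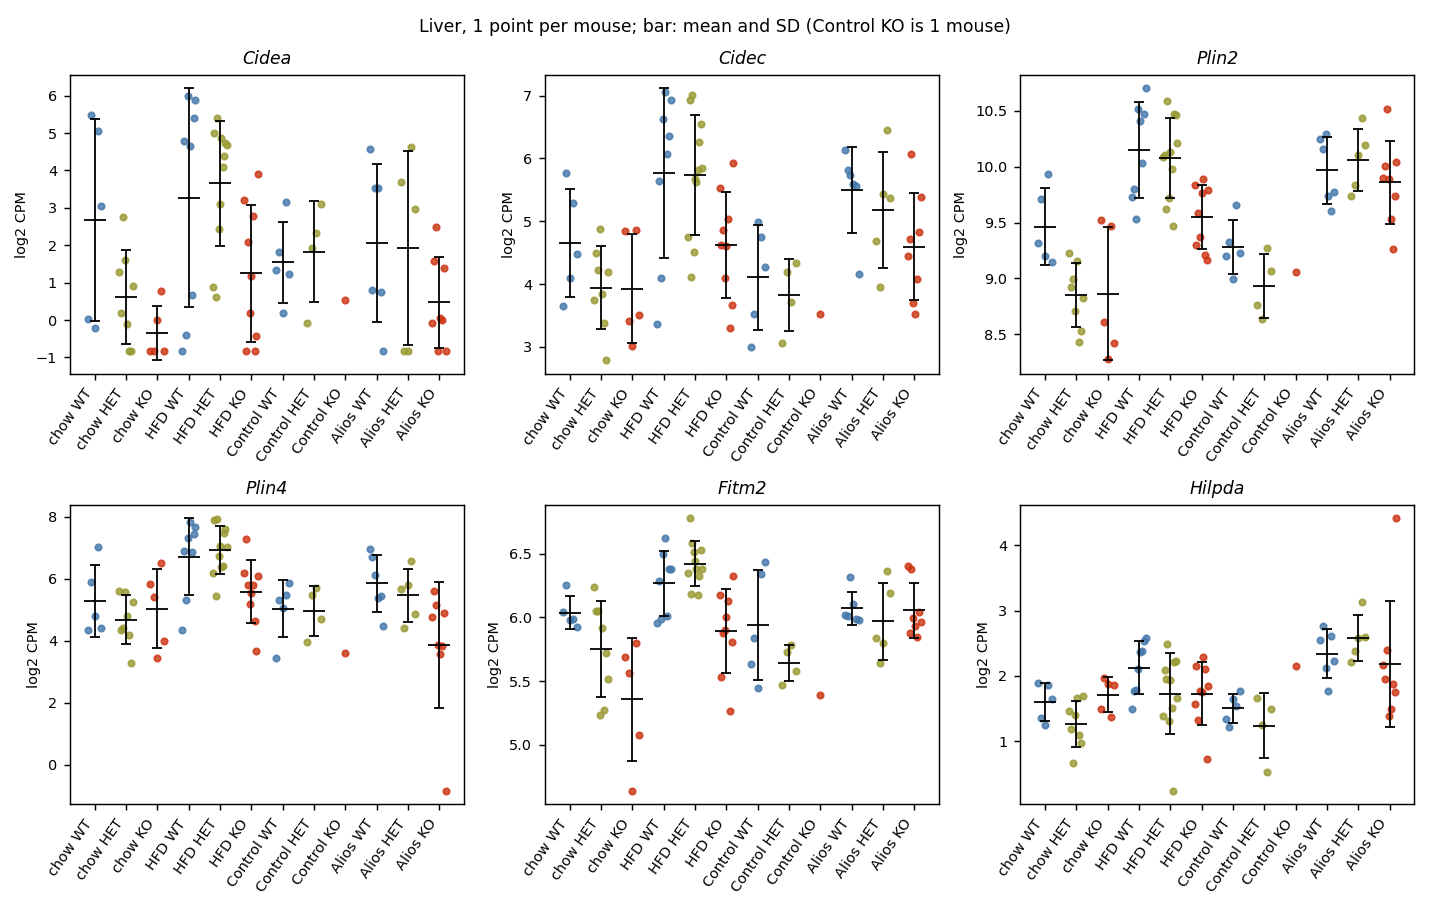
Log2 CPM per liver for Cidea, Cidec, Plin2, Plin4, Fitm2 and Hilpda (1 panel each, vertical axis in log2 CPM) in the 12 groups of diet and genotype; points are mice and black bars are the group mean and SD. HET mice on HFD lie above HET mice on chow for Plin2 in every liver, and Cidea spreads from 0 to 62.9 CPM within WT mice on HFD.

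In WT livers none of the 9 members passed the same test of HFD against chow, although all 9 log2 fold changes were positive. edgeR called 1.87% of genes in that comparison. At an unadjusted p under 0.05 the count was 6 of 9, against 1698 of 11064 genes, and DESeq2 called 2, Plin2 and Plin3. Plin2 was 639, 840, 587, 978 and 567.5 CPM in the 5 chow WT livers and 739, 1207 and 1668 CPM at the lowest, median and highest of 8 HFD WT livers (log2 fold change 0.72 ± 0.21 SE, adjusted p = 0.0624). Plin3 had 0.58 ± 0.17 (adjusted p = 0.0622) and Cidec 1.43 ± 0.49 (adjusted p = 0.121). Cidea varied widely among WT livers on either diet: the 5 chow livers held 0.452, 44.0, 0.302, 32.9 and 7.72 CPM, and the 8 HFD livers 0, 27.1, 0.205, 62.9, 24.6, 1.04, 42.0 and 58.5 CPM. Both diets had WT livers below 1 CPM and WT livers at 32.9 CPM or more. A direct test of the HFD effect in HET against WT liver called 0 of 9 members and 0% of all genes by edgeR. The count was 1 at an unadjusted p under 0.05 (Cidea, 2.47 ± 1.17, adjusted p = 1), against 240 of 11064 genes, and DESeq2 called 0.

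KO livers likewise gave 0 of 9 members called for HFD against chow, while 10.7% of all genes were called. All 9 log2 fold changes were positive. At an unadjusted p under 0.05, 2 passed, against 3099 of 11064 genes, and DESeq2 called those 2, Plin2 and Fitm2. Plin2 held 737, 391, 310, 710 and 342 CPM in the 5 chow KO livers and 574, 770 and 950 CPM over 9 HFD KO livers (0.59 ± 0.21, adjusted p = 0.0591). Fitm2 held 51.1, 46.8, 24.4, 55.2 and 33.2 CPM on chow and 37.9, 59.1 and 79.7 CPM on HFD (0.47 ± 0.16, adjusted p = 0.0545). The macrophage marker sum had medians of 839 CPM in chow KO livers and 320 CPM in HFD KO livers. For the neutrophil sum the medians were 38.5 and 6.28 CPM, and for the hepatocyte sum 90472 and 120789 CPM. The part of these sums in the values was not tested. A direct test of the HFD effect in KO against HET liver called 2.8% of all genes and 0 of 9 members. At an unadjusted p under 0.05 there were 5 members, against 2136 of 11064 genes. DESeq2 called 0, and 8 of 9 differences were negative, led by Plin4 (-1.94 ± 0.66, adjusted p = 0.0995). The difference in KO effect between HFD and chow called 0.145% of genes and no member, and DESeq2 called 0. At an unadjusted p under 0.05 there were 0 members, against 2003 of 11064 genes.

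**Figure D2:**
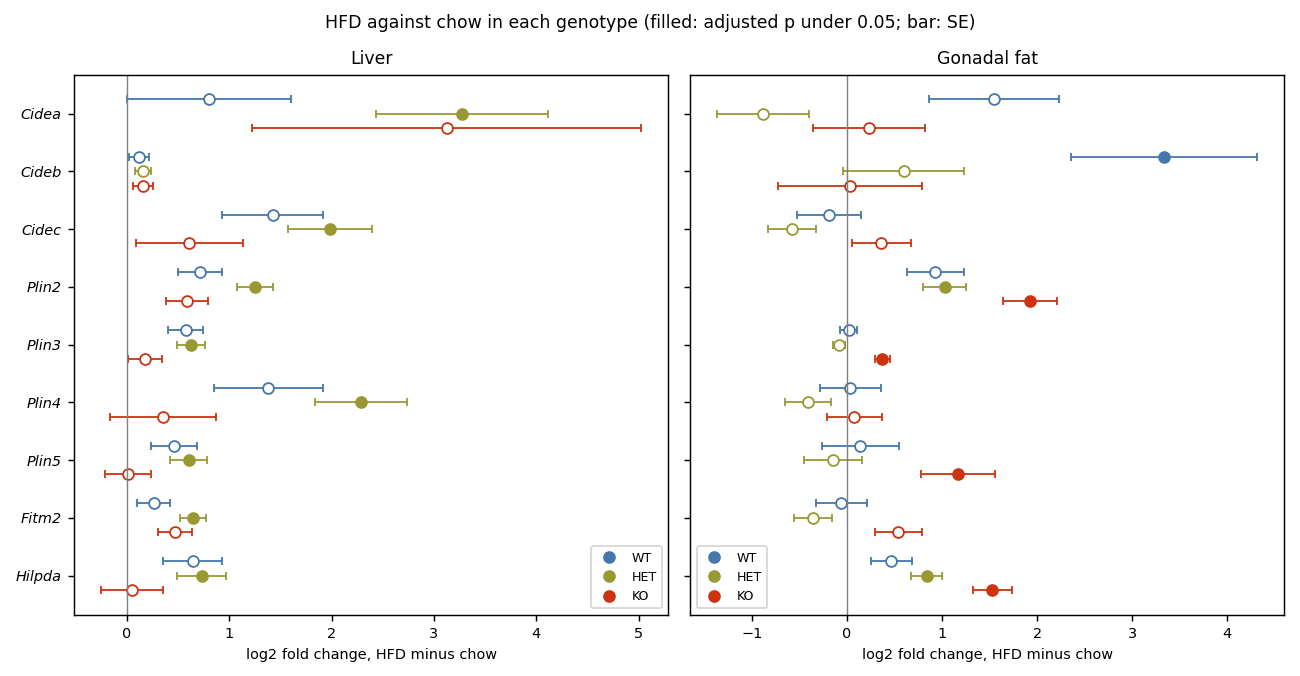
Log2 fold change of HFD against chow with SE (horizontal axis, log2 units) for the 9 tested members in WT, HET and KO mice, liver and gonadal tissue side by side; filled points passed an adjusted p under 0.05. In liver the 8 filled points are all HET, and in gonadal tissue Plin2 and Hilpda are filled in HET and KO.

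On HFD, KO livers held less Cidea, Cidec and Plin2 than WT livers. These were 3 of the 9 members, where 1.15% of all genes were called lower, and all 9 log2 fold changes were negative. The members' median was -0.50, against -0.00 over all genes tested. At an unadjusted p under 0.05, 8 of 9 members passed, against 1743 of 11064 genes. Cidea was 0, 25.9 and 62.9 CPM at the lowest, median and highest of 8 WT livers and 0, 1.70 and 14.5 CPM over 9 KO livers, 7.00-fold lower in KO (-2.81 ± 0.75, adjusted p = 0.0397). Cidec was 9.78, 73.9 and 133 CPM in WT and 9.27, 23.95 and 60.002 CPM in KO, 2.66-fold lower (-1.41 ± 0.39, adjusted p = 0.0487). The WT and KO ranges overlapped for both, since some WT livers were as low as the KO livers. Plin2 was 739, 1207 and 1668 CPM in WT and 574, 770 and 950 CPM in KO, 1.56-fold lower (-0.64 ± 0.18, adjusted p = 0.0461), with 4 of 9 KO livers below every WT liver. Plin4 (-1.22 ± 0.43, adjusted p = 0.131) and Fitm2 (-0.38 ± 0.13, adjusted p = 0.133) had the next smallest p-values and did not pass, and Cideb, the CIDE gene of lipoprotein loading, was at -0.19 (adjusted p = 0.221). The adipocyte marker sum had a median of 24.8 CPM in WT and 45.7 CPM in KO livers. For the macrophage sum the medians were 303 and 320 CPM. The part of either sum in these values was not tested.

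These 3 calls lay close to the threshold. Leaving out single mice ended the call of Cidea in 10 of 17 cases, of Cidec in 11 and of Plin2 in 10 (WT 4, 5, 7 and 8 and KO 2, 3, 4, 5, 7 and 8 for each, and also KO 6 for Cidec), with adjusted p 0.0587 to 0.117 for Cidea, 0.0631 to 0.175 for Cidec and 0.0562 to 0.13 for Plin2. The 3 calls also ended together without a filter on low counts, in a fit of the WT and KO livers on HFD alone, and without the livers rich in muscle markers. DESeq2 did not call Cidea (adjusted p = 0.1). In edgeR with the replicate number as a block, Cidea (adjusted p = 0.083) and Cidec (adjusted p = 0.058) did not pass. With a filter at a mean of at least 1 CPM, Cidec did not pass in edgeR (adjusted p = 0.052). In the fits that left out 1 mouse and lost the call, the log2 fold changes lay between -2.83 and -2.48 for Cidea, between -1.44 and -1.21 for Cidec and between -0.67 and -0.55 for Plin2. Without KO 9 the Cidea difference grew to 11.4-fold (-3.51, adjusted p = 0.0211).

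Against HET livers on HFD, KO livers had lower Fitm2, the budding factor, and that was the only member called (1 of 9, with 1.33% of all genes called lower). Fitm2 was 71.7, 82.7 and 109 CPM over 11 HET livers and 37.9, 59.1 and 79.7 CPM over 9 KO livers. Of the KO livers 7 lay below the lowest HET liver, and the fall was 1.43-fold (-0.51 ± 0.13 SE, adjusted p = 0.0175). It passed in each of the 20 fits that left out 1 mouse, but not without the livers rich in muscle markers. Plin2 (-0.55 ± 0.17, adjusted p = 0.0605), Cidec (-1.19 ± 0.37, adjusted p = 0.0728), Plin4 (-1.26 ± 0.41, adjusted p = 0.0818) and Cidea (-2.23 ± 0.72, adjusted p = 0.0832) were negative without passing, as were the other 4. No member was called between HET and WT livers on HFD (0 of 9 by edgeR, 0 by DESeq2, 0.00904% of all genes by edgeR). At an unadjusted p under 0.05 there were 0 members, against 924 of 11064 genes.

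On chow, no member passed between KO and WT liver (0 of 9, where 3.4% of all genes were called). At an unadjusted p under 0.05 there were 4, against 2231 of 11064 genes. DESeq2 called 2, Cidea and Fitm2. Fitm2 came nearest. The 5 WT livers held 65.3, 75.9, 62.5, 62.7 and 60.2 CPM and the 5 KO livers 51.1, 46.8, 24.4, 55.2 and 33.2 CPM. Every KO liver lay below every WT liver, with a log2 fold change of -0.59 ± 0.18 (adjusted p = 0.0576). Cidea in the KO livers was 0, 0, 0.443, 1.16 and 0 CPM, against 0.302 to 44.0 CPM in WT (-5.13 ± 1.68, adjusted p = 0.0716). Marker sums also differed between these groups. The macrophage sum had medians of 226 CPM in WT and 839 CPM in KO livers. For the neutrophil sum the medians were 7.89 and 38.5 CPM, and for the hepatocyte sum 109999 and 90472 CPM. The part of these sums in the values was not tested.

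**Figure D3:**
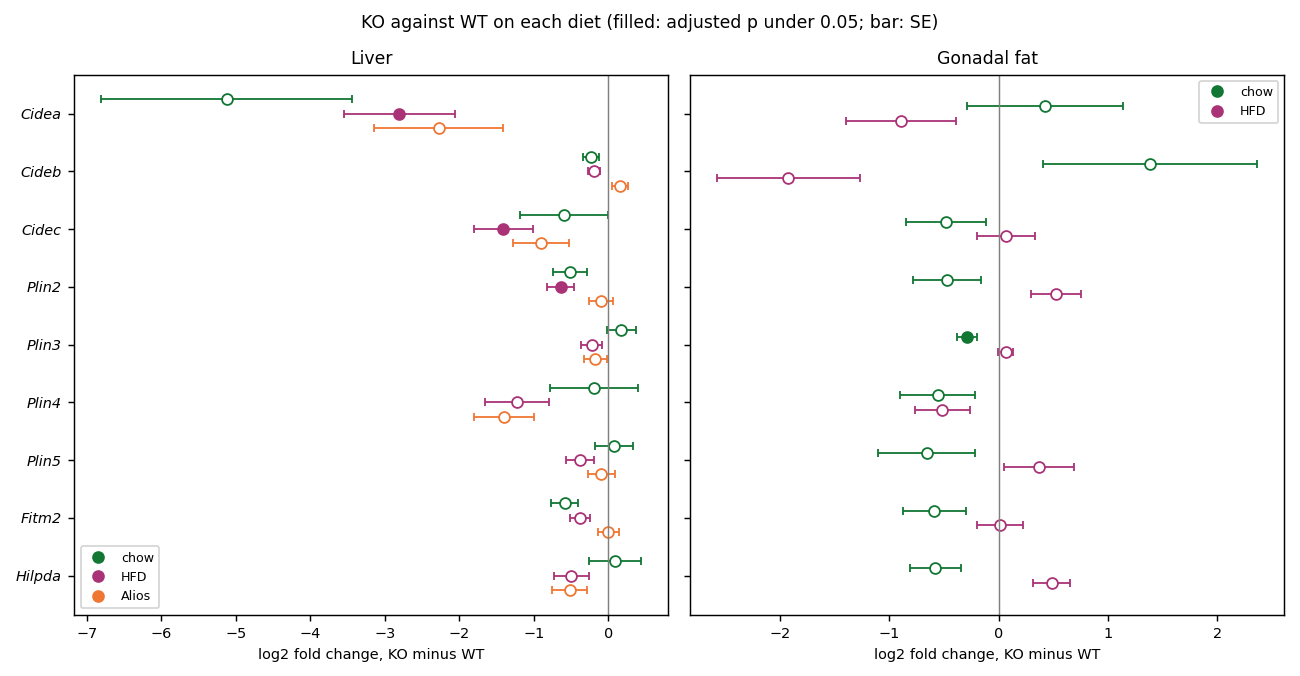
Log2 fold change of KO against WT with SE (log2 units) for the 9 tested members on each diet, liver and gonadal tissue side by side; filled points passed an adjusted p under 0.05. In liver on HFD all 9 points lie below 0 and Cidea, Cidec and Plin2 are filled.

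The Alios diet raised Plin2 and Hilpda in HET liver. The 4 HET livers on the Control diet held 433, 399, 620 and 534 CPM of Plin2, and the 5 on Alios held 853, 914, 1105, 1383 and 1172 CPM. For Hilpda these were 2.61, 1.82, 0.893 and 2.27 CPM on Control and 4.09, 4.65, 5.42, 8.22 and 5.47 CPM on Alios. All 5 Alios livers exceeded all 4 Control livers for both genes. How many of all genes separate in this way was not counted. The lowest Control HET liver for Hilpda held 1 count. By edgeR, 0.138% of all genes were called higher in this comparison. Plin2 was 2.20-fold higher (1.14 ± 0.21 SE, adjusted p = 0.0271) and Hilpda 2.63-fold higher (1.39 ± 0.30, adjusted p = 0.0464). The other 7 tested members did not pass, with Cidec at 1.67 ± 0.50 (adjusted p = 0.139). Leaving out 1 mouse ended the call of Plin2 in 5 of 9 fits (Control HET 1, 2 and 4 and Alios HET 3 and 5, adjusted p 0.053 to 0.14) and of Hilpda in 7 (each Control mouse and Alios HET 3, 4 and 5, adjusted p 0.0596 to 0.171).

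In WT livers the Alios diet gave 0 members called of 9, and 0% of all genes were called by edgeR. At an unadjusted p under 0.05 there were 3 members, against 976 of 11595 genes, and DESeq2 called 1, Plin2. Plin2 lay at 510 to 805 CPM in 5 Control WT livers and at 776 to 1259 CPM in 6 Alios WT livers (0.71, adjusted p = 0.367). Hilpda lay at 1.77 to 2.84 CPM and at 2.87 to 6.26 CPM (0.99, adjusted p = 0.367), ranges that did not overlap. Between genotypes on Alios, no member was called for KO against WT (0 of 9, 0 by DESeq2, with 0.224% of all genes called). Nor was any called for KO against HET (0 of 9, 0 by DESeq2, with 0.285% called). At an unadjusted p under 0.05 there were 4 and 3 members, against 1684 and 1547 of 11595 genes. Plin4 was nearest, at 21.8, 56.2 and 125 CPM over 6 WT and 0, 20.4 and 48.3 CPM over 8 KO livers (-1.40 ± 0.40, adjusted p = 0.0945). The KO liver at 0 is the one with the lowest total count. The single KO liver on the Control diet entered no test: it held 534 CPM of Plin2, 10.9 CPM of Cidec and 41.3 CPM of Fitm2.

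Among livers labelled with 1 genotype on HFD, most pairs of Cidea, Cidec, Plin2 and Plin4 varied together. Of their 18 correlations of log2 CPM (6 pairs in 3 genotypes), 14 had a permutation p for Pearson's r, adjusted over the 18, under 0.05. How often pairs of other genes reach this in the same livers was not tested. The HET livers include the mouse with Pepd at the KO level, and these pairs were not tested again without it. Cidec and Plin4 were tightest in 8 WT livers, with r = 0.99 and rho = 0.95 (exact permutation p = 0.000149 and 0.00114, adjusted p = 0.0012 and 0.0103), and r = 0.93 without the 2 livers farthest from the Cidec median. In 11 HET livers that pair had r = 0.90 and rho = 0.91 (permutation p = 0.0002 and 0.00039, adjusted p = 0.0012 and 0.00702, r = 0.92 without the 2 farthest). In 9 KO livers it had r = 0.68 and rho = 0.80 (exact permutation p = 0.0436 and 0.0138, adjusted p = 0.0523 and 0.0226, r = 0.68 without the 2 farthest).

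Cidea and Cidec gave r = 0.85, 0.89 and 0.89 in WT, HET and KO livers (permutation adjusted p = 0.0134, 0.0012 and 0.00424; exact in WT and KO), with rho = 0.69, 0.85 and 0.87 (adjusted p = 0.0794, 0.0115 and 0.0169). Without the 2 livers farthest from the Cidea median r was 0.41 in WT, 0.84 in HET and 0.77 in KO, so the WT relation rests on those livers. Cidea and Plin4 in KO livers had r = 0.35 and rho = 0.43 (exact permutation p = 0.372 and 0.253, adjusted p = 0.372 and 0.253), and Plin2 and Plin4 there had r = 0.46 (exact permutation adjusted p = 0.236). All these points share library depth and the same scaling.

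**Figure D4:**
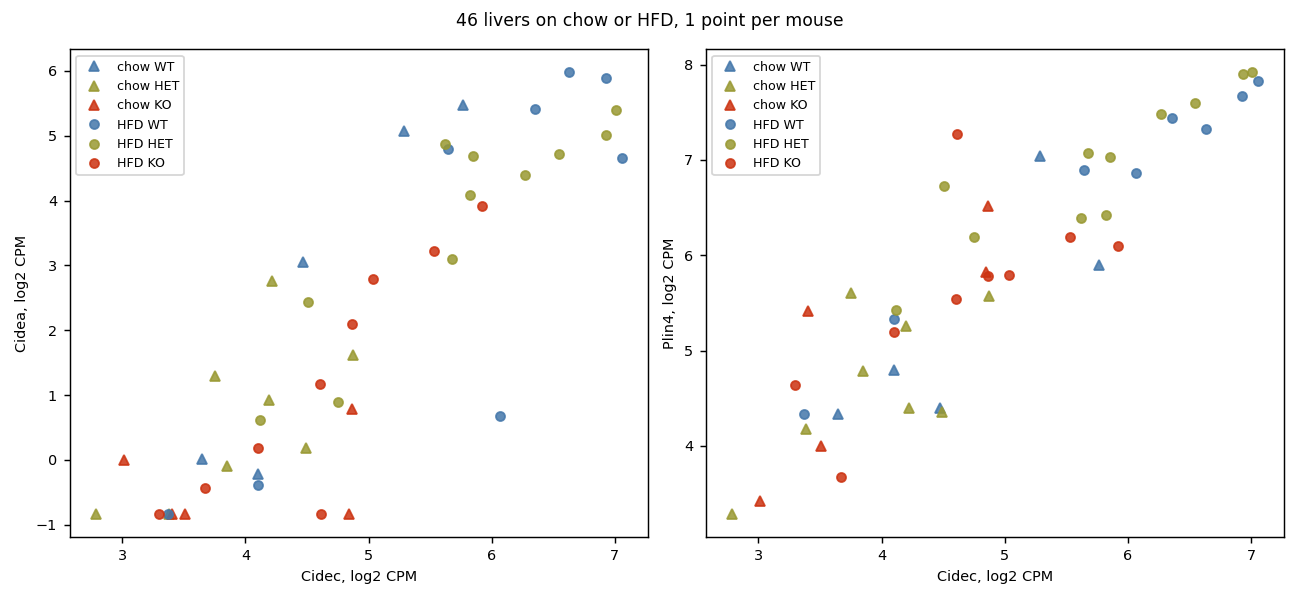
Log2 CPM of Cidea (left) and of Plin4 (right) against that of Cidec (horizontal axis) in the 46 livers on chow and HFD, 1 point a mouse, coloured by genotype and shaped by diet. Plin4 follows Cidec most closely in WT livers on HFD (r = 0.99) and less closely in KO (r = 0.68).

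Over the same 46 livers, the genes whose log2 CPM ranked most like a member's among 11064 tested were listed as a description of these libraries, which share diet groups and depth. Cidea was most like Mogat1, a monoacylglycerol acyltransferase (Spearman rho 0.88), Osbpl3 (0.86), Pex11a (0.86), Lgals1 (0.84) and Tmprss11f (0.84). Cidec was most like Anxa5 (0.92), Lgals1 (0.88), Tmprss11f (0.87), Osbpl3 (0.86) and Mogat1 (0.86), so 4 of the 5 names are common to both CIDE genes. Plin2 had other neighbours: Vnn1 (0.93), Bdh1, a ketone body dehydrogenase (0.91), Apoa4 (0.91), Gpc1 (0.90) and Mgll, monoglyceride lipase (0.89). Plin4 stood between, with Vnn1 (0.84), Anxa5 (0.84), 2010003K11Rik (0.84), Apoa4 (0.82) and Lgals1 (0.82).

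In gonadal fat of HET mice Plin2 and Hilpda rose on HFD. Plin2 was 392, 636 and 1186 CPM at the lowest, median and highest of 8 chow libraries and 1035, 1486 and 1878 CPM over 11 HFD libraries, 2.04-fold higher on HFD (1.03 ± 0.22 SE, adjusted p = 0.000573). Hilpda was 13.4, 18.8 and 26.6 CPM on chow and 27.3, 32.9 and 46.8 CPM on HFD, with no overlap, 1.79-fold higher (0.84 ± 0.16, adjusted p = 0.000199). These were 2 of 9 members, where 15.6% of all genes were called higher. The members' median log2 fold change was -0.15, against -0.04 over all genes tested. Cidec (-0.58 ± 0.25, adjusted p = 0.07) and Plin4 (-0.41 ± 0.24, adjusted p = 0.183), the most abundant coat transcripts of fat, did not pass. In an edgeR fit of the HET libraries alone, Cidea, Cidec and Fitm2 were called as well, lower on HFD (adjusted p = 0.02, 0.01 and 0.03). The share of all genes called in that fit is not given here. In the fit of all gonadal groups it was 34.4% in either direction. The summed macrophage markers had medians of 1288 CPM on chow and 3967 CPM on HFD in these HET mice, and the summed adipocyte markers 15975 and 8237 CPM; their part in the rise of Plin2 and Hilpda was not tested.

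In KO mice 4 of 9 members rose on HFD, and 15% of all genes were called higher. Plin2 was 256, 575, 733, 278 and 685 CPM in the 5 chow KO libraries and 1319, 1770 and 3174 CPM over 9 HFD KO libraries. All 9 lay above all 5, and the rise was 3.80-fold (1.93 ± 0.28, adjusted p = 3.78e-06). Hilpda was 8.22, 13.7, 18.4, 15.9 and 13.2 CPM on chow and 21.7, 37.5 and 65.8 CPM on HFD, also without overlap, a 2.89-fold rise (1.53 ± 0.21, adjusted p = 1.14e-06). Plin3 was 79.2, 86.2, 100, 80.4 and 82.6 CPM on chow and 98.2, 107 and 136 CPM on HFD, 1.29-fold higher (adjusted p = 0.000399). Plin5 was 10.6, 11.7, 15.5, 1.88 and 5.11 CPM on chow and 14.5, 18.9 and 32.1 CPM on HFD, 2.25-fold higher (1.17 ± 0.39, adjusted p = 0.0169).

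Some chow KO gonadal libraries were poor in adipocyte RNA. The summed adipocyte markers of the 5 were 6116, 22846, 17784, 3866 and 8363 CPM, and Cidec was 1409, 5338, 5683, 676 and 1538 CPM in the same order. Plin4 was 2201, 4647, 6142, 806 and 1804 CPM, so all 3 readouts were high in mice 2 and 3 and low in mice 1, 4 and 5. The other chow libraries held at least 9612 CPM of these markers, and the macrophage sum of chow KO reached 8723 CPM. The summed neutrophil markers were 482 CPM in chow KO 4 and 708 CPM in chow KO 5, against 56.6 CPM or less in every other gonadal library. The summed epididymis markers were 13204, 2.48, 6.53, 0.419 and 0.704 CPM in chow KO 1 to 5. Chow WT 2 and chow HET 2 held 15100 and 12485 CPM of them. The part of these marker sums in the values was not tested. Without the 3 chow KO libraries under 10000 CPM, Plin2 and Hilpda still passed for HFD against chow in KO (1.56, adjusted p = 0.0153, and 1.32, adjusted p = 0.0108), and Plin3 (0.25, adjusted p = 0.135) and Plin5 (0.58, adjusted p = 0.496) did not. Leaving out chow KO 4 or chow KO 5 alone also ended the call of Plin5 (adjusted p = 0.0723 and 0.0564).

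**Figure D5:**
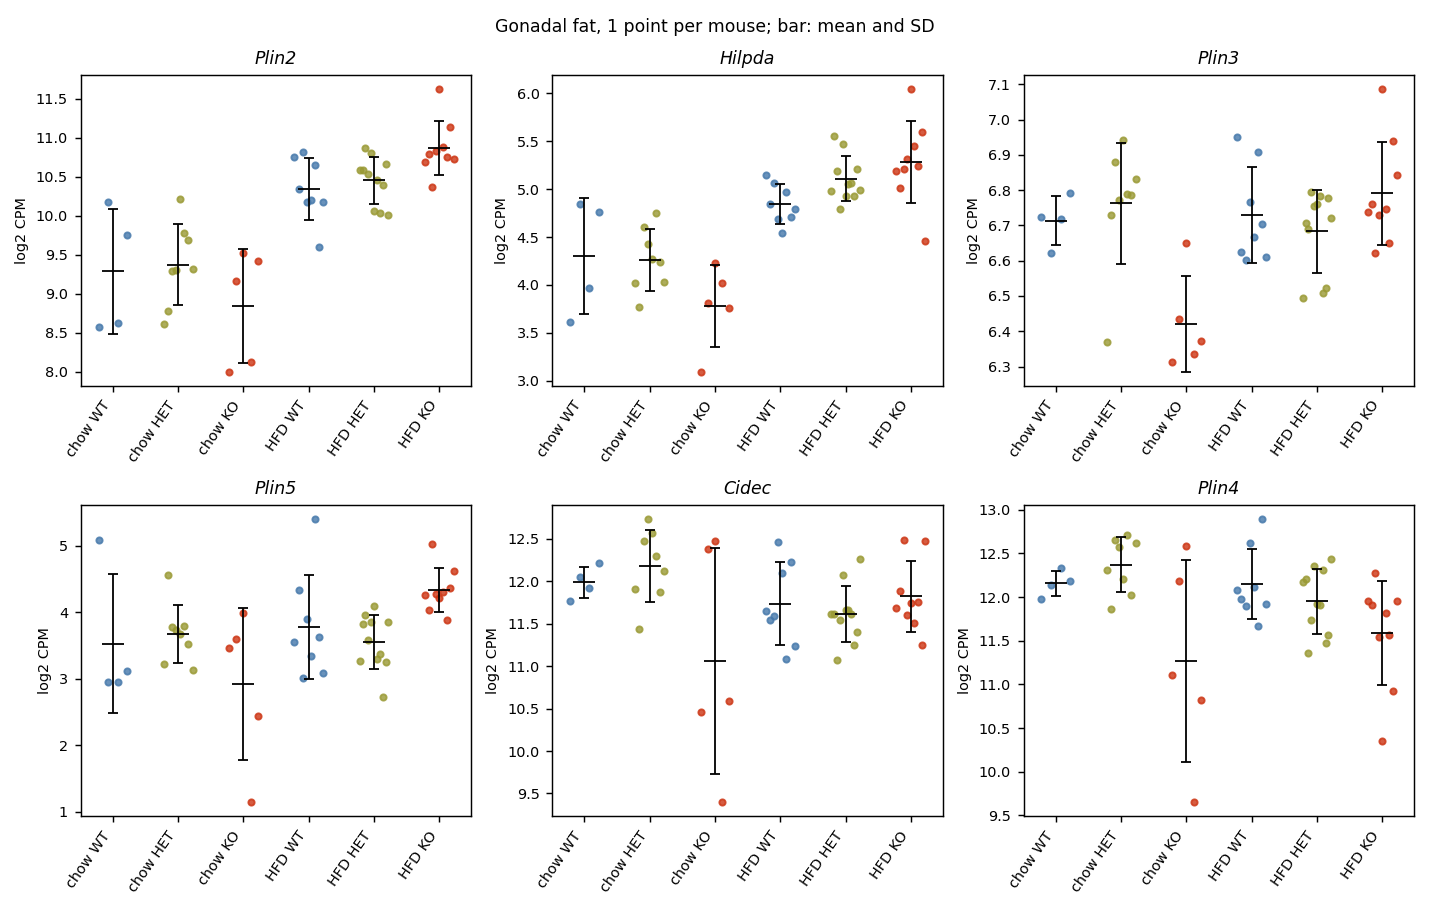
Log2 CPM per gonadal library for Plin2, Hilpda, Plin3, Plin5, Cidec and Plin4 (1 panel each, vertical axis in log2 CPM) in 6 groups of diet and genotype; points are mice and black bars are the group mean and SD. KO mice on HFD lie above KO mice on chow for Plin2 and Hilpda without overlap, and 3 chow KO libraries lie low for Cidec and Plin4.

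WT gonadal fat gave 1 of 9 members called for HFD against chow, Cideb, where 1.6% of all genes were called higher. Its 10.1-fold difference (3.34 ± 0.98, adjusted p = 0.0428) rested on WT mouse 6, at 30.7 CPM against a group median of 0.978 CPM. That library also held the hepatocyte marker sum of 50318 CPM named above, and without it Cideb had a log2 fold change of 1.29 (adjusted p = 0.208). The call also ended without HFD WT 1, 3 or 8 or chow WT 2, 3 or 4 (log2 fold change 3.21 to 3.49, adjusted p 0.0511 to 0.177). Plin2 was 382, 1161, 396 and 866 CPM in the 4 chow WT libraries and 777, 1241 and 1803 CPM over 8 HFD WT libraries (0.93 ± 0.30, adjusted p = 0.0562).

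The response of the coat to HFD was larger in KO than in HET gonadal fat for 5 of 9 members, where 12.2% of all genes were called higher in that test. Beside Plin2 (difference of log2 fold changes 0.90 ± 0.34, adjusted p = 0.047), these were Plin3 (0.46 ± 0.10, adjusted p = 0.00148), Plin5 (1.31 ± 0.49, adjusted p = 0.0426), Fitm2 (0.90 ± 0.32, adjusted p = 0.0327) and Hilpda (0.69 ± 0.26, adjusted p = 0.0419). None of the 5 passed without the 3 chow KO libraries poor in adipocyte markers: Plin2 was then 0.53 (adjusted p = 0.771), Plin3 0.34 (0.471), Plin5 0.72 (0.778), Fitm2 0.13 (0.956) and Hilpda 0.48 (0.726). Of the 33 fits that left out 1 mouse, 21 ended the call of Plin2 (chow KO 1 and 4, chow HET 3, 5, 6, 7 and 8, HFD HET 1, 2, 4, 6, 7, 8, 9 and 11 and HFD KO 2, 4, 5, 6, 8 and 9, adjusted p 0.0505 to 0.142). For Hilpda 15 did (chow KO 1, 2, 4 and 5, chow HET 3, 4 and 6, HFD HET 1, 4, 6, 8 and 9 and HFD KO 5, 6 and 8, adjusted p 0.0505 to 0.116). Plin5 lost its call in 13 (chow KO 1, 4 and 5, chow HET 2, 3 and 6, HFD HET 1, 7, 8, 9 and 10 and HFD KO 3 and 9, adjusted p 0.0504 to 0.123) and Fitm2 in 4 (chow KO 1, 4 and 5 and HFD KO 3, adjusted p 0.0597 to 0.104), while Plin3 passed in all 33. Between HET and WT the HFD effect gave no member (0 of 9, 0 by DESeq2, and 0% of all genes by edgeR). At an unadjusted p under 0.05 there were 2 members, against 824 of 14536 genes. This comparison of KO with HET and that of HET with WT were added after the separate diet effects had been seen.

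Between genotypes 1 gonadal coat gene was called. On chow, Plin3 was lower in KO than in WT, 1 of 9 members with 6.14% of all genes called lower: the 4 WT libraries held 105, 98.1, 105 and 110 CPM and the 5 KO libraries 79.2, 86.2, 100, 80.4 and 82.6 CPM (1.22-fold lower, -0.29 ± 0.09, adjusted p = 0.0304). Of the KO libraries 4 lay below every WT library. The call ended in 5 of 9 fits that left out 1 mouse (chow KO 1, 4 or 5 and chow WT 2 or 5, adjusted p 0.0542 to 0.104) and without the 3 adipocyte-poor KO libraries. On HFD no member was called by edgeR or DESeq2 for KO against WT, KO against HET or HET against WT (0 of 9 each). The shares of all genes called by edgeR were 0.0344%, 0.0138% and 0.00688%. In that order 4, 2 and 2 members passed at an unadjusted p under 0.05, against 1521, 1130 and 710 of 14536 genes. The KO effect differed between HFD and chow for Hilpda, 1 of 9 members with 1.67% of all genes called higher (1.06 ± 0.29, adjusted p = 0.0213). Hilpda was 11.9, 28.5, 15.4 and 26.9 CPM in chow WT and 23.0, 27.9 and 35.2 CPM in HFD WT, and its means were 20.6 ± 8.27 CPM (SD, n = 4) in WT and 13.9 ± 3.79 CPM (SD, n = 5) in KO on chow, and 28.7 ± 4.15 CPM (SD, n = 8) in WT and 40.1 ± 12.1 CPM (SD, n = 9) in KO on HFD. That call ended without chow WT 3 (0.87, adjusted p = 0.0877), without chow WT 5 (0.91, adjusted p = 0.0861) and without the 3 adipocyte-poor KO libraries (0.85, adjusted p = 0.603).

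No relation was detected between a member's level in liver and in fat of the same animal. Across 11 HET mice on HFD, Pearson's r between the tissues lay between -0.57 (Plin5) and 0.39 (Plin3), and 0 of 9 members passed a permutation test adjusted over the 9. Plin2 had r = -0.02 and rho = -0.12 (permutation p = 0.954 and 0.733, adjusted p = 0.954 and 0.776) and r = 0.05 without the 2 mice farthest from the median. Without the mouse labelled HET whose Pepd was at the KO level, Plin4 had r = -0.72 and rho = -0.71 over 10 mice (permutation p = 0.0197 and 0.0275, adjusted p = 0.177 and 0.247).

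A list of 37 other droplet and triglyceride genes gave the setting for the coat. Over HET liver on HFD against chow, 8 of 35 tested rose and 3 fell, where 6.97% of all genes were called higher and 7.26% lower. The carbohydrate-response factor Mlxipl fell (-0.87, adjusted p = 2.39e-05), while the droplet dehydrogenase Hsd17b11 (0.54, adjusted p = 0.00028), the fatty acid transporter Cd36 (1.35, adjusted p = 0.000945) and Mgll (0.79, adjusted p = 0.00209) rose. In KO liver 8 rose and 2 fell (4.51% and 6.19% of all genes), with Cd36 (1.77, adjusted p = 0.00156), the acyltransferase Gpam (1.83, adjusted p = 0.00389) and Hsd17b11 (0.51, adjusted p = 0.00666) among those that rose and the droplet protein Aup1 among those that fell (-0.44, adjusted p = 0.0208). In WT liver only Hsd17b13 rose (0.88, adjusted p = 0.0227) and only Mlxipl fell (-0.72, adjusted p = 0.0167), with 1.21% of all genes called higher and 0.66% lower.

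In KO against WT liver on HFD, 3 of 35 list genes fell, where 1.15% of all genes were called lower. They were Hsd17b11 (-0.45, adjusted p = 0.0187), Pparg (-0.95, adjusted p = 0.0313) and the lipase gene Pnpla2 (-0.41, adjusted p = 0.0474). Against HET, 5 fell, among them Hsd17b11 (-0.46, adjusted p = 0.0056), the lipoprotein receptor Vldlr (-1.32, adjusted p = 0.00941) and hormone-sensitive lipase, Lipe (-0.66, adjusted p = 0.0105), and the droplet hydrolase Pnpla3 was higher (2.52, adjusted p = 0.00908), with 1.33% of all genes called lower and 1.06% higher. On chow, Hsd17b11 (-0.55, adjusted p = 0.017) and the receptor Ppara (-0.75, adjusted p = 0.0284) fell in KO against WT, 2 of 35 with 0.931% of all genes called lower. For the HFD effect in KO against HET liver, Pnpla3 (3.56, adjusted p = 0.0367) and Acsl3 (1.10, adjusted p = 0.0186) were higher and Pnpla2 was lower (-0.60, adjusted p = 0.0408), with 0.822% of all genes called higher and 1.98% lower. On Alios in HET liver 1 list gene fell, Dgat2, which makes triglyceride (-0.81, adjusted p = 0.0465), with 0.0517% of all genes called lower.

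In gonadal fat most list genes called in HET mice fell on HFD, and all those called in KO mice rose. In HET, 3 of 36 rose on HFD and 12 fell (15.6% and 18.8% of all genes), led by the acyltransferases Gpat4 (-0.69, adjusted p = 9.18e-05) and Mogat1 (-1.86, adjusted p = 0.000385), with Mlxipl (-0.91, adjusted p = 0.00038) and Pparg (-0.86, adjusted p = 0.00125). In KO, 13 rose and 0 fell (15% and 20.6% of all genes), led by Pcyt1a, which feeds phospholipid to growing droplets (0.81, adjusted p = 2.91e-06), Cd36 (1.30, adjusted p = 0.00027), Spg20 (0.44, adjusted p = 0.00027) and Vldlr (1.48, adjusted p = 0.00067). The direct test of KO against HET called 19 of 36 higher, with 12.2% of all genes, among them Ldah (0.78, adjusted p = 0.000933), Rab18 (0.35, adjusted p = 0.00257), Dgat2 (1.83, adjusted p = 0.00399) and lipoprotein lipase, Lpl (1.51, adjusted p = 0.0055). On chow 5 fell in KO against WT, where 6.14% of all genes were called lower, among them Acsl3 (-0.64, adjusted p = 0.0297), Dgat2 (-1.30, adjusted p = 0.0305), Ldah (-0.46, adjusted p = 0.036) and Lpl (-1.07, adjusted p = 0.0395). The 3 chow KO libraries poor in adipocyte markers are in each of these KO comparisons; what they contribute to the list was not tested. In WT mice only Lpin2 rose (1.04, adjusted p = 0.0425, with 1.6% of all genes called higher). In the remaining 11 comparisons edgeR called no gene of the list, and 1 to 11 list genes passed at an unadjusted p under 0.05. The 11 of 36 were in the gonadal KO effect between HFD and chow, where 3423 of 14536 genes passed. The 1 of 35 was in the liver HFD effect in HET against WT, where 240 of 11064 did.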

How the data were processed

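RNA of liver and gonadal adipose tissue was read as 50-base single-end reads from TruSeq stranded libraries, per the labels' protocols. Per the submitters' processing notes, the tools were STAR 2.5.1b and featureCounts 1.5 and the build GRCm38.p5; no strand setting is named. What the authors deposited are raw counts per Ensembl gene, and 25723 of 25759 genes had a symbol. Of 121 labelled samples 120 had a column: gonadal chow WT sample 1 is not analysed here, nor is 1 unlabelled column.

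In R 4.3.3, edgeR 4.0.16 (filterByExpr with minimum count 10 and minimum total 15, TMM, quasi-likelihood F test, two-sided) was fitted to liver on chow and HFD (11064 genes), liver on Control and Alios (11595) and gonadal tissue (14536), and to liver against gonadal tissue with the mouse as a block (12388). P-values were adjusted by Benjamini-Hochberg over all genes of a comparison, with calls made under 0.05. SE is the log2 fold change divided by the square root of F. CPM used TMM-scaled totals, and log2 CPM a prior count of 2. Fits were tested on simulated data. The members, the list of 37 genes and the markers were chosen with earlier results of these data known. All members are named, with up to 4 called list genes of smallest adjusted p per comparison and the 5 genes most like each of Cidea, Cidec, Plin2 and Plin4. Over 392 pairs of libraries of a group, each of at least 100000 counts, the observed variance was at least 3.36 times the sampling variance, so none was counted as a repeat. Replicate numbers did not pair the mice. Alternatives were DESeq2 1.42.0, other scalings, filters and thresholds, a replicate block, a fit of the compared groups alone, and leaving out single mice or libraries rich in other tissues' markers.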

Additional observations from a re-analysis of the deposited data

Results flagged for a closer look

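A single library stood apart in 11 of 135 groups of 4 to 10 mice tested; chance alone flags about 1 in 20 groups. The value given first is the gap to the nearest mouse as a share of the group's range. In liver, the Alios KO mouse with the lowest total count was the lowest for Cideb (0.612, 20.7 CPM), Plin4 (0.682, 0 CPM) and Plin5 (0.799, 0 CPM) and the highest for Hilpda (0.667, 20.7 CPM). An Alios WT liver was lowest for Cidec (0.707, 17.3 CPM), and another was highest for Fitm2 (0.635, 79.4 CPM). In gonadal fat, Cideb was highest in HFD WT 6 (0.675, 30.7 CPM) and in HFD KO 3 (0.523, 5.61 CPM). Plin5 was highest in chow WT 2 (0.919, 33.6 CPM) and chow HET 2 (0.538, 23.4 CPM), the 2 libraries of their groups with the most epididymis marker RNA (15100 and 12485 CPM); chow KO 1, at 13204 CPM of these markers, had 10.6 CPM of Plin5, below chow KO 2 and 3 (11.7 and 15.5 CPM). The part of these markers in Plin5 was not tested. Plin3 was lowest in chow HET 1 (0.626, 82.4 CPM).

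Effects on members differed between groups by a test of the difference itself in gonadal fat and not in liver. The KO effect on Hilpda was 1.06 higher on HFD than on chow, in log2 units. The HFD effect was higher in KO than in HET for Plin2 by 0.90, Plin3 by 0.46, Plin5 by 1.31, Fitm2 by 0.90 and Hilpda by 0.69. Of all genes, edgeR called 1.67% higher in the first of these tests and 12.2% in the second. None of these differences passed without the chow KO libraries poor in adipocyte markers (edgeR adjusted p 0.471 to 0.956).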

How the results depend on the processing

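Counts are members called out of 9, and those not named here stayed within 1.5 times of the value reported. Under library totals alone, Plin2 turned from 0.64 to -0.17 (log2) in liver against gonadal tissue. DESeq2 called 2 in place of 0 for liver chow KO against WT, 2 for 1 in HFD KO against HET, 2 for 0 in HFD against chow in WT and in KO, 1 for 0 in Alios WT, 1 for 2 in Alios HET and 2 for 1 in the gonadal KO effect. At an adjusted p under 0.01 the count was 0 for liver HFD KO against WT and against HET, Alios HET, gonadal chow KO against WT, gonadal WT HFD and the gonadal KO effect, and 1 for the gonadal HFD effect in KO against HET. With all 12 liver groups in a fit it was 2 for chow KO against WT, HFD KO against HET and KO on HFD, and 1 for WT on HFD. Without a filter it was 0 for liver HFD KO against WT and gonadal WT HFD and 2 for the gonadal KO against HET test. With only the compared groups it was 0 for liver HFD KO against WT, Alios HET, gonadal chow KO against WT, WT HFD and the KO effect, 4 for HFD KO against HET and 5 for gonadal HET HFD.

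The replicate block gave 1 for liver HFD KO against WT, 0 for HFD KO against HET, 5 for HET HFD, 1 for Alios HET and 0 for gonadal chow KO against WT and gonadal WT HFD. The numbers do not pair mice: in 0 of 18 comparisons did every pair correlate above 0.1, and 12 of 114 libraries correlated best with their own number. Alternatives chosen after seeing the data follow. The run of mouse IDs as a covariate gave 0 for gonadal WT HFD. Leaving out gonadal HFD WT 6 gave 0 there and 2 for the KO effect, and the count for liver against gonadal tissue stayed at 6. Without the adipocyte-poor chow KO libraries the counts were 0 for chow KO against WT, the KO effect and the KO against HET test, and 2 for KO HFD. Without epididymis-rich libraries they were 0 for chow KO against WT and WT HFD and 2 for the KO against HET test. Without muscle-rich livers they were 0 for HFD KO against WT and against HET, and without the HET mouse with KO-level Pepd 2 for the latter. The cause was not tested in any of these. Leaving out 1 mouse gave 0 to 1 for liver chow KO against WT, 0 to 3 for HFD KO against WT, 1 to 3 for HFD KO against HET, 0 to 2 for WT HFD, KO HFD and Alios HET, 0 to 4 for gonadal chow KO against WT, 0 to 2 for WT HFD, 0 to 4 for the KO effect and 1 to 6 for the KO against HET test. For HFD against chow in WT and in KO liver, only the chow mice were left out in turn. Counts of 0 or 1 in some libraries limit the precision of Cidea, Hilpda and gonadal Cideb, and of Plin4 and Plin5 in the shallowest Alios KO liver.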
